A study of Mus musculus with 8 samples.

Results

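The 8 genes described here act around the TSC-RHEB switch of mTORC1 and were measured in whole mouse embryos that lack Arid3b. They are the inducible inhibitors Ddit4, Ddit4l, Sesn1, Sesn2 and Sesn3, and the switch genes Tsc1, Tsc2 and Rheb. They were taken by gene name from the scanner files, where they are carried by 18 of 41174 probes, and all 8 are among the 17099 genes measured. The set was put together with the null against wild-type difference already known, so for these 8 genes that difference is described and not tested. Of the 8, Ddit4 and Sesn2 stood higher in every null pool than in any wild-type pool, 3.93-fold and 1.91-fold by group means. The other 6 lay between 0.902-fold and 1.10-fold on the probe that stands for each gene, with overlapping groups.

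The samples were total RNA of E9.0 whole embryos, 4 wild-type and 4 Arid3b-null pools of 3 to 4 embryos each, labelled with Cy3 and hybridised singly to Agilent arrays. No strain, allele design or litter is given in the sources used here, so a p-value sets a difference against the spread between these pools only. Because whole embryos were used, more RNA per cell and more cells of an expressing type cannot be told apart. Signals are given on a log2 scale with the 75th percentile of each array subtracted, so that 0 is the brightness of that percentile and 1 unit is a doubling.

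mTORC1 is the kinase complex that couples growth to nutrients, oxygen and growth factors. On the lysosome it is switched on by the small GTPase RHEB, and the TSC1-TSC2 complex keeps RHEB in its inactive state. DDIT4, also called REDD1, is a short-lived protein made under hypoxia, energy stress and glucocorticoids and acts through the TSC complex, while the sestrins act mainly on the amino acid branch by binding GATOR2.

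On the 8 arrays 60.0% to 64.1% of probes were well above background and 0 were saturated. The 75th percentile of the signal was 1280 to 1703. Precision is limited by having 4 arrays a group. The Arid3b signal in null pools averaged 39.2% of the wild-type mean on its brightest probe, where it was called (limma adjusted p = 0.00577), and 30.8% and 30.2% on the others. On the brightest probe wild-type pools 1 to 4 gave 3.47, 3.29, 3.39 and 3.31. Null pools 1 to 4 gave 1.89, 1.83, 1.85 and 2.48, so null pool 4 kept more of the signal than the other null pools. All 12 measured markers of embryonic tissues and all 8 of yolk sac endoderm were above background on at least 4 arrays. Of 6 measured markers of trophoblast and decidua, 4 (Tpbpa, Prl7a1, Gcm1 and Psg17) were not well above background on any array. The summed linear signal, in units of the 75th percentile, of the embryonic markers was 129 to 136 in wild type and 142 to 158 in null. That of yolk sac endoderm was 12.1 to 22.2 and 11.7 to 21.9, and that of primitive red cells 262 to 417 and 215 to 375. Of the 7 red cell markers 1 was called, Klf1, an erythroid transcription factor, which fell by 0.88 ± 0.18 (SE, log2; limma adjusted p = 0.0377). Trophoblast and decidua gave 0.0752 to 0.117 in wild type and 0.0667 to 0.274 in null, and the Y-linked genes Ddx3y, Eif2s3y, Kdm5d and Uty 0.0138 to 2.53 and 1.57 to 3.08. The part of these differences in the results below was not tested. Pools 1 and 2 of each group shared slide 1 and pools 3 and 4 slide 2. Wild-type pools took positions 1 and 2 on both slides and null pools positions 3 and 4, so position and genotype cannot be told apart.

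Ddit4 had the largest difference of the 8 genes. Its single probe lies at chr10:59467933-59467992 on the minus strand (mm7) and is assigned by the file to the Ddit4 mRNA. The signal was 4.06, 4.40, 4.29 and 4.13 in wild-type pools 1 to 4 and 6.19, 6.62, 6.18 and 5.79 in null pools 1 to 4. The groups were far apart, with a gap between the highest wild-type and the lowest null pool that exceeded the range within either group. The means were 4.22 ± 0.16 and 6.20 ± 0.34 (SD, n = 4 pools each), a difference of 1.98 ± 0.17 (SE of the limma fit, log2). As a fold this was 3.93, with a 95% interval of 3.00 to 5.16, and it held rank 20 of 17099 genes ordered from the highest difference. Relative to the wild-type geometric mean the null pools stood at 392%, 529%, 388% and 297%, and the wild-type pools at 89.5%, 114%, 105% and 93.8%. Leaving out 1 pool at a time gave differences from 1.83, without null pool 2, to 2.11, without null pool 4. Within slide 1 it was 2.17 and within slide 2 it was 1.78, each from 2 pools per group.

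Sesn2, which encodes a leucine-binding inhibitor of GATOR2 and is induced by amino acid shortage and endoplasmic reticulum stress, came next. On its brighter probe (chr4:131870492-131870551, minus strand, mm7) the wild-type pools gave 2.05, 2.24, 2.46 and 2.33 and the null pools 3.12, 3.36, 3.1 and 3.23. All null pools lay above all wild-type pools, and the means were 2.27 ± 0.17 and 3.20 ± 0.12 (SD, n = 4 each). The difference was 0.93 ± 0.11 (SE, log2), or 1.91-fold with a 95% interval of 1.61 to 2.26, at rank 182 in the same order. The other probe, at chr4:131871376-131871435, also kept the groups apart but showed a smaller difference. Its values were 1.15, 1.34, 1.67 and 1.64 in wild type and 1.83, 1.94, 2.07 and 2.05 in null, a difference of 0.52 ± 0.13, or 1.43-fold. The size for Sesn2 thus depended on the probe, and the mean of both gave 0.73. Within slide 1 the brighter probe gave 1.10 and within slide 2 it gave 0.77.

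The promoters of Ddit4 and Sesn2, whose groups did not overlap, and of Ddit4l, the Ddit4 paralogue whose groups did, are shown here as the 250 bases before the annotated start, 5′ to 3′ on the strand of the gene (RefSeq, GRCm38.p6), with matches to the searched motifs in capitals.
Ddit4, chr10:59951771-59952020, minus strand: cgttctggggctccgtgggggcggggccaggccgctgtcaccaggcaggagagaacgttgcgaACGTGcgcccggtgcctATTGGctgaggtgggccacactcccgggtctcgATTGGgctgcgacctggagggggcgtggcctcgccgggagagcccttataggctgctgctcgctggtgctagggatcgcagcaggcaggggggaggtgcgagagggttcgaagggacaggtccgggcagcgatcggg
Sesn2, chr4:132510457-132510706, minus strand: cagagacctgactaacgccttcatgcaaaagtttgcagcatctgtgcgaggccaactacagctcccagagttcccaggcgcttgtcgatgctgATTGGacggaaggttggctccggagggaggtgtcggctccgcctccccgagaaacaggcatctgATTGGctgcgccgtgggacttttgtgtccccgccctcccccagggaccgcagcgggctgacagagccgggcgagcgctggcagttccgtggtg
Ddit4l, chr3:137623422-137623671, plus strand: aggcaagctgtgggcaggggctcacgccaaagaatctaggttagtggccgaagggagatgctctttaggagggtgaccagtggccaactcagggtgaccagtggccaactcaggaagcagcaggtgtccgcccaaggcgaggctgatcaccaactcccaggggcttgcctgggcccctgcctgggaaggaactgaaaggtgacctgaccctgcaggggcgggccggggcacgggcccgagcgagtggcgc
Both strands were searched for the ACGTG form of the hypoxia response core, the E-box CACGTG that contains it, the C/EBP-ATF composite TGATGNAA, a p53 core pair (2 copies of CATG with any 6 bases between), the FOXO motif TGTTTAC and the CCAAT box, which reads ATTGG on the other strand. The form GCGTG was not searched, and it occurs unmarked in the Ddit4 window and, on the other strand, in the Ddit4l window. The Ddit4 window held ACGTG once, 187 to 183 bases before the start, and 2 CCAAT boxes. Over all 32851 windows of this length 16.6% held ACGTG, 33.8% held at least 1 CCAAT box and 10.1% held 2 or more. The Sesn2 window held 2 CCAAT boxes, at 157 to 153 and 93 to 89 bases before the start, and no ACGTG, and the Ddit4l window held none of the 6 motifs. The Rheb window had an E-box at 96 to 91 bases before the start, which holds ACGTG on both strands, and 6.02% of windows had an E-box. Sesn3 held 4 CCAAT boxes and Sesn1 held 1 in each of its 2 windows. None of the 9 windows of the 8 genes held TGATGNAA, the p53 core pair or TGTTTAC, which occur in 3.45%, 0.49% and 3.17% of all windows. GC content was 70.0% for Ddit4, 65.2% for Ddit4l and 63.2% for Sesn2, against a median of 52.4%. Observed over expected CpG was 0.769 for Ddit4, 0.722 for Sesn2 and 0.387 for Ddit4l, where the median of all windows was 0.373. It was 0.753 and 0.758 for the windows of Sesn1, 0.722 for Sesn3, 0.884 for Tsc1, 1.04 for Tsc2 and 1.35 for Rheb. A ratio well above the median was thus shared by all of the genes except Ddit4l.

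Ddit4l encodes the paralogue REDD2, which shares the inhibitory action of DDIT4. Its brightest probe gave -1.92, -1.61, -1.97 and -2.12 in wild type and -2.04, -1.34, -2.76 and -2.08 in null. The null pools spread to both sides of the wild-type pools, from 55.2% to 148% of the wild-type mean. The difference was -0.15 ± 0.27 (SE, log2), a fold of 0.902 with a 95% interval of 0.584 to 1.39, so a change of up to 1.39-fold upward or down to 0.584-fold lies within the error. Its 3 probes gave -0.26 ± 0.18, -0.15 ± 0.27 and -0.03 ± 0.19, and groups overlapped on each. Null pool 2 was the highest null pool on 2 of these probes (-1.34 and -1.65) and the lowest on the third (-2.82).

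Sesn1, the sestrin best known as a p53 target, had a small difference. It gave 1.08, 1.0, 1.18 and 1.07 in wild type and 1.2, 1.15, 1.25 and 1.27 in null. The null mean was slightly higher and the groups overlapped, since wild-type pool 3 exceeded null pool 2. The difference was 0.13 ± 0.07 (SE, log2), or 1.10-fold, with a 95% interval of 0.981 to 1.23. The other Sesn1 probes gave 0.06 ± 0.10 and 0.16 ± 0.11. Shifting the arrays to a common median, which moves all genes by -0.0976, brought the Sesn1 difference to 0.043.

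Sesn3, known as a FOXO target, had overlapping groups. It gave 2.68, 2.34, 2.75 and 2.70 in wild type and 2.68, 2.23, 2.82 and 2.68 in null. Pool 2 was the lowest pool of each group, and the remaining pools lay within 2.68 to 2.82. The difference was -0.01 ± 0.15 (SE, log2), or 0.990-fold, with a 95% interval of 0.781 to 1.25. A second probe gave -0.01 ± 0.08. The third, at chr9:14156141-14156199 (mm7), was well above background in only 3 of 4 wild-type and 1 of 4 null pools and is close to the detection limit.

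**Figure D1:**
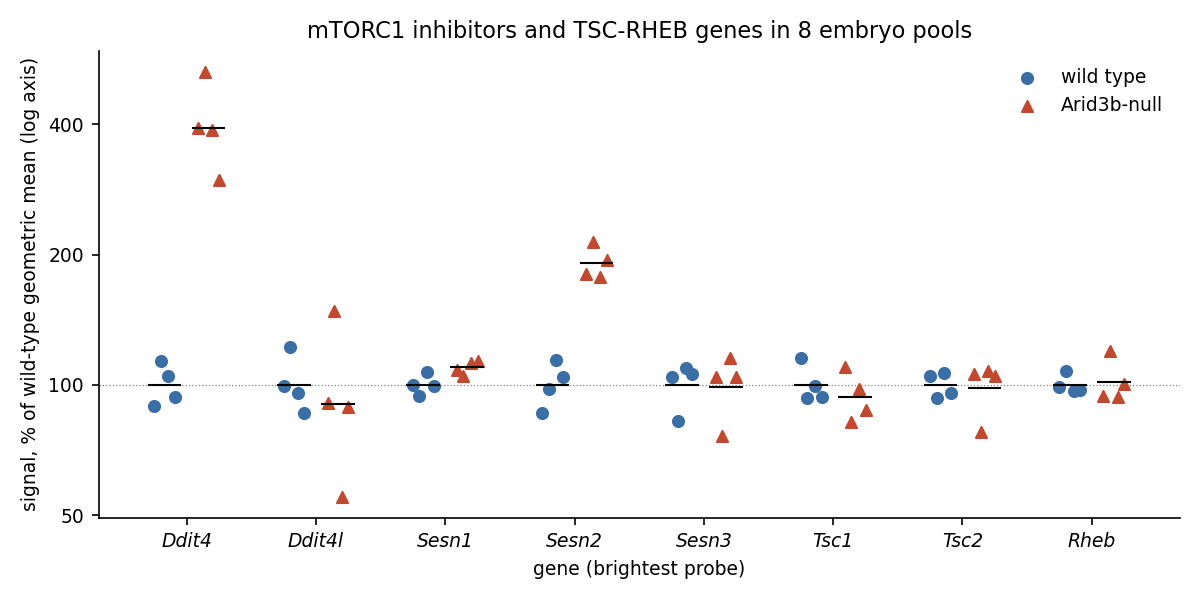
Signal of each of the 8 genes on its brightest probe in each pool, as percent of the wild-type geometric mean on a log axis; circles are wild-type pools, triangles Arid3b-null pools and bars geometric means of 4 pools. Ddit4 (297% to 529% in null) and Sesn2 (177% to 214%) are the genes whose groups do not overlap.

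The genes of the switch itself had overlapping groups on every probe. Tsc2, the GTPase-activating subunit, gave 3.92, 3.75, 3.94 and 3.79 in wild type and 3.93, 3.49, 3.95 and 3.92 in null. Null pool 2 was lower than all other pools, and the rest overlapped. The difference was -0.02 ± 0.12 (SE, log2), or 0.984-fold, with a 95% interval of 0.814 to 1.19. Rheb, the GTPase that activates mTORC1, gave 4.79, 4.91, 4.76 and 4.77 in wild type and 4.72, 5.07, 4.72 and 4.81 in null. Pool 2 was the highest pool of each group. The difference was 0.02 ± 0.10 (SE, log2), or 1.02-fold, with a 95% interval of 0.872 to 1.19. Tsc2 and Rheb each have 1 probe. The file aligns only 43 of the 60 bases of the Tsc2 probe and 35 of the 60 bases of the Rheb probe to the genome as given in its coordinate field.

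Tsc1, the scaffold subunit that stabilises TSC2, gave different pictures on its 4 probes. The brightest probe (chr2:28697773-28697832, mm7) gave 0.15, -0.16, -0.07 and -0.15 in wild type and 0.08, -0.34, -0.09 and -0.25 in null, a difference of -0.09 ± 0.12 (SE, log2). The probe at chr2:28694422-28694481 gave -1.49, -1.59, -1.53 and -1.57 in wild type and -1.0, -1.50, -1.24 and -1.18 in null. There 3 of the 4 null pools were above all wild-type pools and null pool 2 lay among them, with a difference of 0.32 ± 0.11. The probe at chr2:28693993-28694052 differed by 0.31 ± 0.17. The probe farthest upstream, at chr2:28680839-28680898, gave -4.89, -5.39, -5.09 and -4.99 in wild type and -3.52, -4.74, -4.28 and -4.96 in null. Null pool 1 was by far the highest there, and the difference was 0.71 ± 0.29. Averaged over its 4 probes Tsc1 stood at 0.31 ± 0.15 higher in null, so the near-zero difference of Tsc1 is that of the brightest probe, which lies farthest downstream, and was not shared by the other 3.

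**Figure D2:**
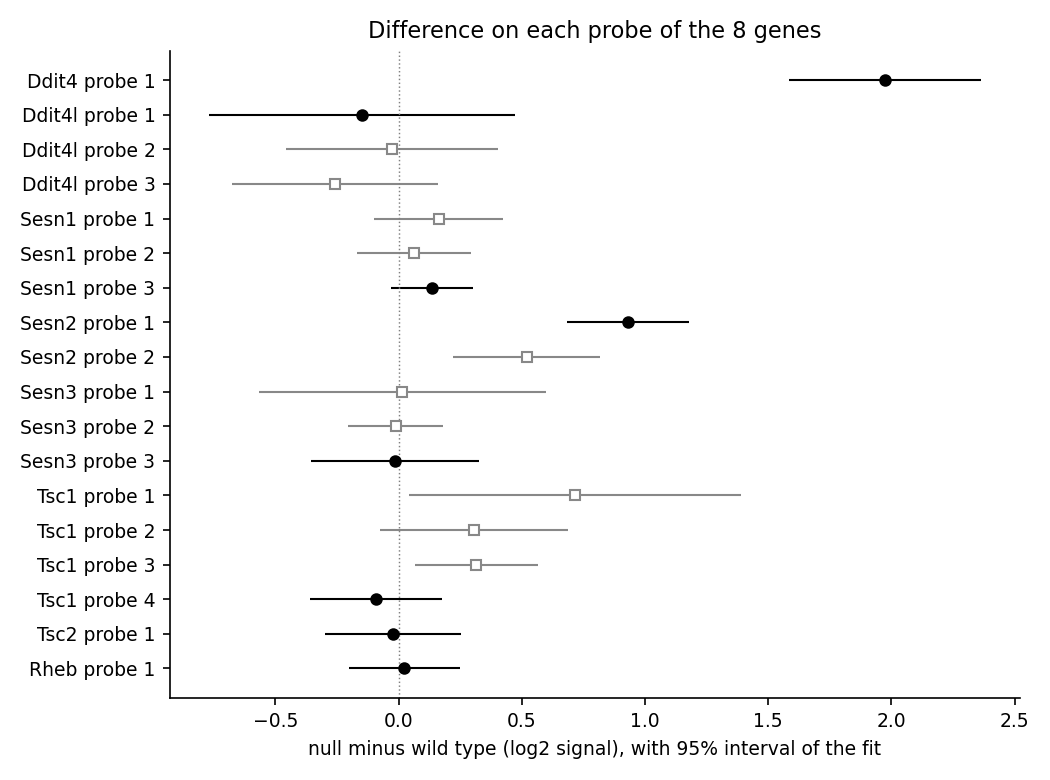
Difference between null and wild type (log2 signal, horizontal axis) on each of the 18 probes, with the 95% interval of the limma fit across all kept probes; filled circles mark the brightest probe of each gene and probes are ordered by mm7 position. Both Sesn2 probes lie above 0 (0.93 and 0.52), while the Tsc1 probes run from -0.09 to 0.71.

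Scaling between arrays was taken out by setting each inducible gene against the mean of Tsc1, Tsc2 and Rheb on the same array. That mean was 2.80 to 2.95 in the wild-type and 2.74 to 2.91 in the null pools, and the groups overlapped. The log2 ratio for Ddit4 was 1.11, 1.57, 1.41 and 1.33 in wild type and 3.28, 3.88, 3.32 and 2.97 in null, 4.02-fold apart by means. For Sesn2 it was -0.90, -0.60, -0.42 and -0.47 in wild type and 0.21, 0.62, 0.23 and 0.40 in null, 1.95-fold apart. The ratios of Ddit4l, Sesn1 and Sesn3 differed by -0.12, 0.16 and 0.02. These ratios use the brightest probes. With each gene as the mean over its probes, the difference for Sesn2 was 0.62 in place of 0.96 and that for Sesn1 0.016 in place of 0.16. This ratio shows unequal change within an array and not that any of the genes was unchanged.

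Of the 8 genes, 2 had groups that did not overlap. Over all genes tested 16.1% had such groups, 8.08% with null higher. Because the genes were chosen on this contrast, nothing is read from their count.

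A contrast that the choice of genes did not use is slide 2 against slide 1 at fixed genotype. None of the 8 genes was called (limma adjusted p = 0.183 to 0.73), and 12.4% of all genes were. With only 8 genes at that share, nothing is read from the lack of calls. Ddit4l had the lowest p, with a slide difference of -0.51 ± 0.22 (SE, log2; unadjusted p = 0.0508, limma adjusted p = 0.183), and Sesn3 came next at 0.26 ± 0.12 (limma adjusted p = 0.227). Ddit4 differed between slides by -0.22 ± 0.16 and Sesn2 by 0.08 ± 0.10 (limma adjusted p = 0.406 and 0.647). The genotype difference itself was compared between the slides by an interaction term. Slide 2 minus slide 1, it was -0.40 ± 0.30 for Ddit4 and -0.33 ± 0.18 for Sesn2 (SE, log2), and none of the 8 was called (limma adjusted p = 1 for each, with unadjusted p = 0.231 and 0.122). Over all genes 1, or 0.00585%, was called for this term, with 376 at an unadjusted p under 0.05.

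Pools of the same number differed from their group means in the same direction for several of the genes. In wild-type pool 2 the deviation from the group mean was 0.18 for Ddit4, 0.29 for Ddit4l and 0.11 for Rheb, and in null pool 2 it was 0.43, 0.72 and 0.24. The same pools were low for Sesn3 (-0.27 and -0.38), Tsc2 (-0.10 and -0.33) and Tsc1 (-0.10 and -0.19). On the brightest probes pool 2 thus set Rheb and Ddit4l apart from Sesn3 and Tsc2 in both groups. The second Sesn3 probe did not share this. There wild-type pool 2 was the highest wild-type pool (0.79, the others 0.50 to 0.67), and null pool 2 gave 0.63 (the others 0.55 to 0.71). On another Ddit4l probe null pool 2 was the lowest null pool (-2.82). Null pool 2 carried 43.5% of the summed squared deviations of the 8 genes and 18.5% of those of all genes, and null pool 3 carried 24.2% and 12.6%. The largest deviation in each was that of Ddit4l on its brightest probe (0.72 and -0.71). In null pool 3 no other gene deviated by more than 0.22. On the other Ddit4l probes null pool 3 gave -2.37 and -2.29, within the range of the other null pools. For 5 of the 6 genes other than Ddit4 and Sesn2, at least 1 pool deviated from its group mean by more than the genotype difference. Sesn1 was the exception, at 0.13 against deviations of up to 0.10. Differences between same-numbered pools were 2.13, 2.22, 1.89 and 1.66 for Ddit4 and 1.07, 1.12, 0.64 and 0.90 for Sesn2, all with null higher. Sesn1 was also higher in null in every pair, by 0.12, 0.16, 0.07 and 0.19. Tsc1 on its brightest probe was lower in every pair (-0.07, -0.19, -0.02 and -0.10). The direction was mixed for Ddit4l, Sesn3, Tsc2 and Rheb.

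**Figure D3:**
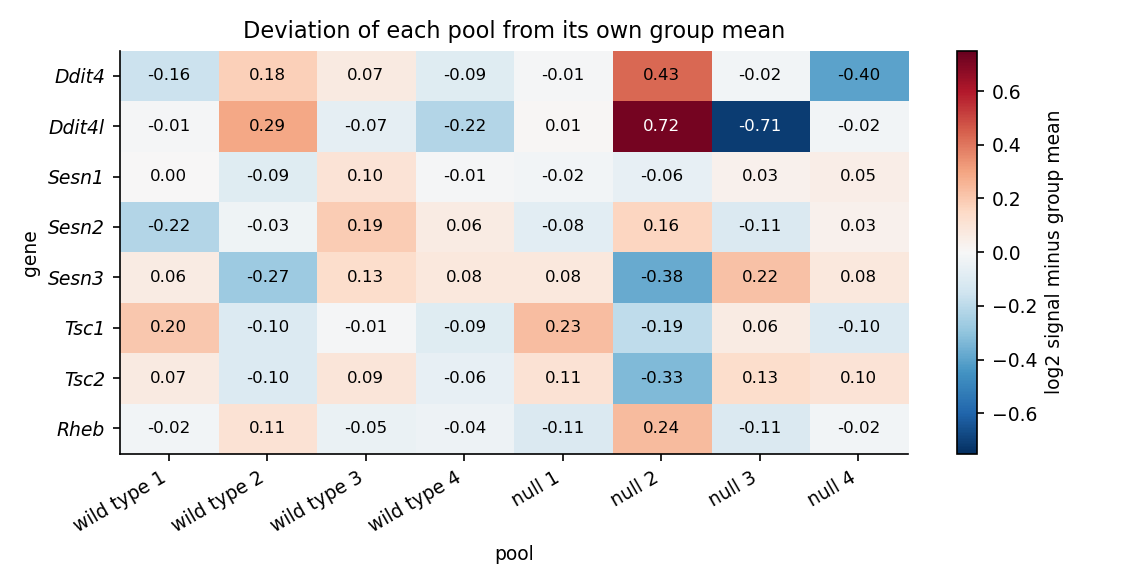
Deviation of each pool from the mean of its own group (log2 signal, colour and printed value) for the 8 genes in the 4 wild-type and 4 null pools. On the brightest probe of each gene, pool 2 of both groups is high for Ddit4, Ddit4l and Rheb and low for Sesn3, Tsc1 and Tsc2.

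The other genes of the pathway were tested against the same background. Of 17099 genes tested 718 were called at a limma adjusted p under 0.05, which is 4.20%, with 2.85% higher and 1.35% lower in null, so that 67.8% of the calls were higher (52% with a median shift and 79.6% with no shift). Of 94 measured pathway genes other than the 8, 5 rose (5.32%), 1 fell (1.06%) and 88 did not pass the test. Their median difference was 0.0063 against -0.0068 over all genes, and 52.1% had a higher mean in null against 48.7%. Groups did not overlap, with null higher, for 13 of them (13.8% against 8.08% of all genes), and with null lower for 7 (7.45% against 8.06%). Blocked on pool number 23 of the 94 were called, 14 higher and 9 lower (24.5% in all, against 13.7% of all genes, of which 7.78% higher and 5.92% lower). With slide as a block 14 were called, 9 higher and 5 lower (14.9% in all, against 8.01% of all genes, of which 4.71% higher and 3.30% lower). Without wild-type pools 1 to 4 or null pool 3 in turn, 1 or 2 pathway genes were called. Ddit3 alone was called with a median shift or no shift between arrays, and none with normexp background correction.

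Among the kinase complex subunits none of 8 passed the test, with a list median of -0.14, and 2 were called lower when blocked on pool number. Mtor, the kinase, stood at -0.14 ± 0.15 and Rptor, the scaffold of mTORC1, at -0.14 ± 0.12 (SE, log2). Akt1s1, which encodes the inhibitory subunit PRAS40, had the smallest p, with 1.51, 1.56, 1.18 and 1.2 in wild type and 1.07, 1.17, 0.99 and 0.99 in null. The null pools were all lower, with a difference of -0.31 ± 0.11 (SE), with a limma adjusted p of 0.159, or 0.0435 when blocked on pool number. None of the 3 partners of TSC and RHEB was called. Txnip, a stress-induced binding partner of DDIT4, stood at 0.55 ± 0.15 with overlapping groups (limma adjusted p = 0.0911, or 0.0217 when blocked on pool number).

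In the amino acid branch 1 of 26 measured genes rose and none fell, with a median of 0.0062. Blocked on pool number, 3 were called higher and 1 lower. Fnip1, a folliculin partner in the control of the Rag GTPases, gave -0.10, -0.14, -0.14 and -0.24 in wild type and 0.41, 0.40, 0.33 and 0.20 in null. The null pools were all higher, 1.40-fold by means (0.49 ± 0.08, SE, log2; limma adjusted p = 0.0177). All 4 Fnip1 probes had a higher null mean (0.30 to 0.55, the lowest with an SE of 0.41). The GATOR2 genes, whose products the sestrins bind, were not called without a block: Mios stood at 0.0061 ± 0.09, Wdr24 at -0.05 ± 0.11, Wdr59 at 0.50 ± 0.13, Seh1l at 0.12 ± 0.07 and Sec13 at -0.29 ± 0.09 (SE, log2; limma adjusted p = 0.0713 for Wdr59 and 0.109 for Sec13). Blocked on pool number, Wdr59 was called higher (limma adjusted p = 0.0171) and Sec13 lower (limma adjusted p = 0.0415). The GATOR1 genes Depdc5, Nprl2 and Nprl3 lay between -0.11 and 0.032.

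In the AMPK branch, the energy sensor that activates TSC2, 1 of 9 rose, with a median of -0.13, and blocked on pool number 1 was called higher and 4 lower. Prkab2, a beta subunit, rose 1.43-fold from -0.54 ± 0.02 to -0.03 ± 0.17 (SD, n = 4; limma adjusted p = 0.0284). Its counterpart Prkab1 stood at -0.26 ± 0.06 (SE; limma adjusted p = 0.0578, or 0.0337 when blocked on pool number), with all null pools lower.

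Outputs of mTORC1 were tested as 20 genes, and none was called, with a median of 0.053. Blocked on pool number, 3 were called higher. Eif4ebp1, the translational repressor that mTORC1 phosphorylates and that ATF4 induces, gave 4.56, 4.77, 4.70 and 4.72 in wild type and 5.03, 5.60, 5.12 and 5.13 in null. The groups did not overlap, and the difference was 0.53 ± 0.13 (SE, log2; limma adjusted p = 0.0615, or 0.0292 when blocked on pool number). It passed without null pool 2 (difference 0.41, limma adjusted p = 0.0458). The kinase genes Rps6kb1 and Ulk1 stood at -0.22 ± 0.07 and -0.18 ± 0.17.

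Among factors that can induce Ddit4 or sestrins, 2 of 12 measured genes rose and none fell, with a median of 0.23. Blocked on pool number, 4 were called higher. Ddit3, which encodes the stress factor CHOP, rose 3.01-fold, from -2.45 ± 0.11 to -0.86 ± 0.30 (SD, n = 4; limma adjusted p = 0.00388). Nr3c1, the glucocorticoid receptor, gave -3.1, -3.41, -3.12 and -3.36 in wild type and -2.60, -2.20, -2.36 and -2.75 in null. The null pools were all higher, 1.70-fold by means (0.77 ± 0.14, SE, log2; limma adjusted p = 0.0284). The size for Nr3c1 depended on the processing. It was 0.23 ± 0.38 under normexp and 0.52 ± 0.12 with the deposited values (SE), and was called in neither. The genes of the main inducing factors were not called with or without that block: Hif1a stood at -0.28 ± 0.09, Atf4 at 0.05 ± 0.11, Trp53 at -0.18 ± 0.15 and Foxo1 at 0.24 ± 0.09 (SE). Levels of mRNA do not report on the stability or translation of these factors. Of 6 sestrin partners and peroxiredoxin genes, 1 fell. Srxn1, the sulfiredoxin that repairs peroxiredoxins, gave 0.62, 0.74, 0.55 and 0.66 in wild type and 0.19, 0.12, 0.10 and 0.14 in null. All null pools were lower, and the signal fell by 0.51 ± 0.07 (SE, log2; limma adjusted p = 0.0132), with all 3 probes in that direction. Among the called genes named above, Ddit3 kept its call in all 8 fits that left out 1 pool, Srxn1 in 5, Fnip1 in 3 and Prkab2 and Nr3c1 in 2 each.

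**Figure D4:**
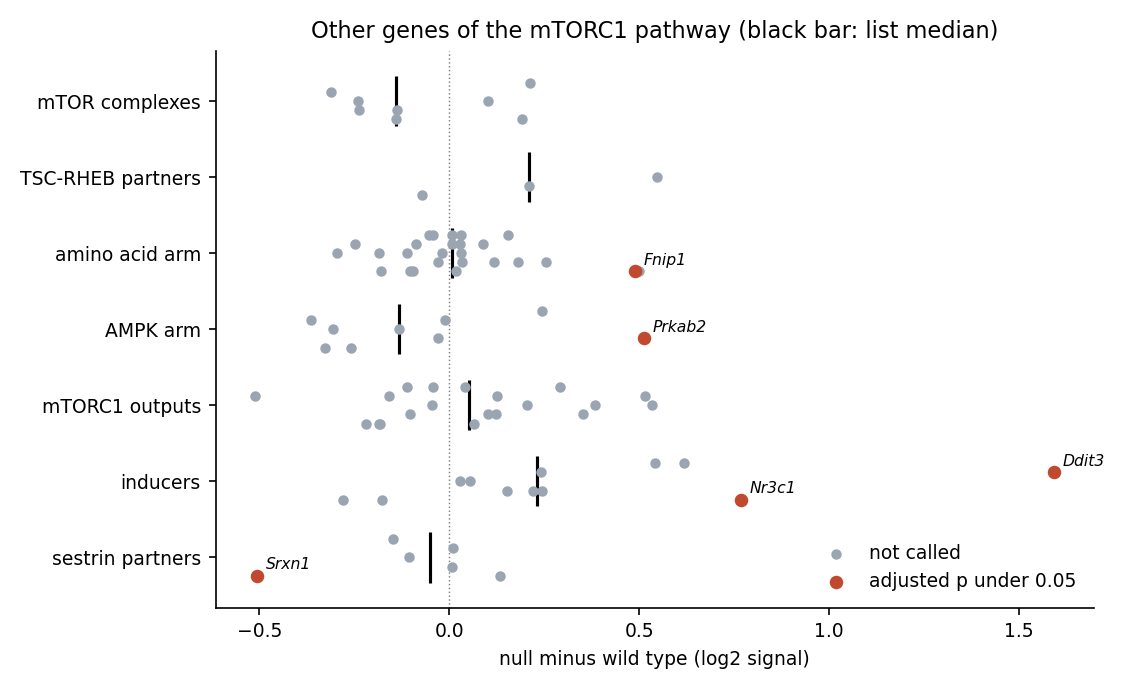
Difference between null and wild type (log2 signal, horizontal axis) for 84 measured pathway genes in 7 lists, by role; red points were called at a limma adjusted p under 0.05 and black bars are list medians. The medians lie between -0.14 and 0.23, and the labelled points are the 4 genes called higher and Srxn1, called lower.

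The genes whose profile over the 8 arrays was most like that of Ddit4, among 13098 named genes above background on all arrays, were Bnip3 (Pearson r = 0.995), Gstm3 (0.995), Eno2 (0.994), Pik3ip1 (0.994) and St3gal1 (0.994). Clone, predicted and accession names had been left out of the 13098. Bnip3 encodes a mitophagy receptor, Eno2 an enolase and Pik3ip1 an inhibitor of PI3K. Their differences were 1.39, 0.62, 3.60, 1.45 and 1.06 in the same order, and each likeness holds the shared genotype difference. For Sesn2 the most alike were Rec114 (0.986), Mturn (0.986), Tdrp (0.981), Zfp677 (0.979) and St3gal1 (0.978), with differences of 0.91, 0.75, 0.39, 0.44 and 1.06. With the group means taken out, other genes were nearest. For Ddit4 these were Atat1 (0.996), Apbb3 (0.984), Rhoc (0.983), Rftn1 (0.981) and Galnt12 (0.981), and for Sesn2 Gpr137 (0.939), Acyp1 (0.936), Sema7a (0.934), Lin7a (0.932) and Rab43 (0.930). None of these 10 was called between the groups (limma adjusted p = 0.092 to 0.914). All these correlations describe 8 arrays that share slides and pool numbers.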

How the data were processed

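Per the file headers, arrays are 1-colour Agilent whole mouse designs read by Feature Extraction 9.5.3.1, with coordinates on mm7. The deposited processed intensity is background-subtracted and detrended within the array, and not scaled between arrays. The deposited mean and local background intensities served only for normexp (offset 50). The deposited value table holds log2 values (column medians 9.44 to 9.47). It correlated at 0.988 or more with the log2 processed signals, and how it was normalized is not stated in the labels or headers.

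Control and outlier spots were left out, spots of a probe averaged on the log2 scale, and the 75th percentile of each array subtracted. The 25555 probes above background on 4 or more arrays were kept, and the brightest stood for its gene. Names followed RefSeq (GRCm38.p6). Accessions matched 22951 of 41174 probes, symbols 6659 and older names 3109. The Y-linked list was added after the data were seen. Genotype was the only term in limma 3.58.1 (R 4.3.3), adjusted by Benjamini-Hochberg over all genes, and calls were made at 0.05. Slide fits covered 17097 genes. Members, lists and tests were chosen with earlier results of these data known. The named genes are the 8 members, Arid3b, up to 4 called genes with the smallest adjusted p per list or the gene with the smallest p, and the 5 genes most like Ddit4 and Sesn2. Mtor, Rptor, the GATOR genes, Prkab1, Rps6kb1, Ulk1, Hif1a, Atf4, Trp53 and Foxo1 were named for their role after their values were seen. Same-numbered pools deviated together (correlations across genes 0.557, 0.635, 0.523 and 0.426), each above 0.1, which meets the criterion for pairs. Same-numbered pools also share a slide, and pools of different number were not compared. These correlations therefore cannot tell a pair from a slide effect. The fit behind the printed errors, intervals and calls has no block, and values blocked on pool number are given where they change a call. On simulated data with 17002 genes, the genotype fit recovered 38%, 72% and 90% of genes changed 1.5-fold, 2-fold and 4-fold, with 6 of 142 calls false. The slide fit recovered 22%, 72% and 88%, with 5 of 132 false. The simulated noise was independent for each gene and array. It held none of the deviations that same-numbered pools share in the real data, so these rates need not hold there. The PI3K-Akt list enters the pathway totals and is not reported singly here.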

Additional observations from a re-analysis of the deposited data

Results flagged for a closer look

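Values of 34 groups of 4 pools were checked for a pool far from the rest, and 3 were found, where chance gives about 1 in 20. The Sesn3 signal of wild-type pool 2 was 2.34, with the other wild-type pools at 2.68 to 2.75 (gap over range 0.838, above the critical value for 4 samples, as are the next values). The Tsc2 signal of null pool 2 was 3.49, with the other null pools at 3.92 to 3.95 (0.923). The Eif4ebp1 signal of null pool 2 was 5.60, with the other null pools at 5.03 to 5.13 (0.83). All 3 lie in pools numbered 2, whose arrays had the lowest 75th percentile of signal (1339 in wild type and 1280 in null). A link between these was not tested. On the second Sesn3 probe wild-type pool 2 was instead the highest wild-type pool (0.79). Arid3b was not among the groups checked, and its brightest probe gave 2.48 in null pool 4, with the other null pools at 1.83 to 1.89.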

How the results depend on the processing

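The Ddit4 difference was 1.78 to 2.17 and the Sesn2 difference 0.73 to 1.10 over 20 alternatives, with null higher in each. Not all of these are separate checks. The slide and replicate blocks, no filter on dim probes and the filter on all 8 arrays left both differences at their main values. The mean over probes did so for Ddit4, which has a single probe. Values that moved by more than the spread between pools were those of Sesn2 with the mean over probes (0.73) and within slide 1 (1.10) and slide 2 (0.77), of Sesn1 with a median shift (0.043) and no shift (0.063), and of Tsc1 with the mean over probes (0.31). Set against Tsc1, Tsc2 and Rheb, the mean over probes moved Sesn2 to 0.62 and Sesn1 to 0.016. The replicate block left every difference of the 8 genes as it was, since all pools enter in pairs. Its standard error was smaller for each gene, for example 0.105 in place of 0.17 for Ddit4 and 0.0548 in place of 0.149 for Sesn3.

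The number of genes called was 204 with a median shift, 157 with no shift, 462 with the deposited table, 164 with no filter on dim probes, 1370 with slide as a block and 2343 with the replicate block. It was 0 under normexp (740 at an unadjusted p under 0.05) and 0 within slide 1 or slide 2 (1881 and 2861). It was 93 to 628 without a pool, and within 1.5 times the 718 only without null pool 4. Pathway genes called were 1 with a median shift, 1 with no shift, 2 with no filter, 14 with slide as a block, 23 with the replicate block, and 0 under normexp or within slide 1 or slide 2 (9, 13 and 22 unadjusted). Without a pool they were 1 to 7. Genes differing between slides numbered 28 under normexp and 3703 with the deposited table. For the interaction the count was 12 with no filter, and 0 with no shift, quantile normalization, normexp, the deposited table or the filter on all 8 arrays (199, 384, 17, 304 and 302 unadjusted). The cause was not tested. The dimmest Sesn3 probe was well above background in only 3 of 4 wild-type and 1 of 4 null pools. The dimmest Tsc1 probe, with a wild-type mean of -5.09, was so in all 4 pools of each group.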
